A study of Mus musculus with 6 samples.

Results

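Axon guidance genes were examined for 2 histone marks in cultured mouse neural stem and progenitor cells given water or crotonate. All protein-coding genes of the RefSeq annotation of GRCm38 were taken whose symbol starts with Sema, Plxn, Robo, Unc5 or Ntng, or is Epha, Ephb, Efna, Efnb, Slit or Ntn with a number, or is Dcc, Neo1, Nrp1 or Nrp2. The rule gave 74 of 21887 protein-coding genes. Of these, 72 encode guidance ligands or receptors. The remaining members, Unc50 and Unc5cl, share the prefix only: Unc50 encodes a membrane protein of the secretory pathway, and Unc5cl a death-domain protein that is no netrin receptor.

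The cells were taken from E13.5 mouse forebrain and expanded with epidermal and fibroblast growth factors. For 24 h they received water or crotonate at 10 mM, a short-chain fatty acid salt that feeds histone crotonylation. Neither mouse strain, genotype nor the number of embryos is given in the sources used here. CUT&Tag, which uses an antibody-tethered transposase to tag DNA beside a chromatin feature, was done for H3K4me3, H3K27me3 and IgG, as 1 library for each antibody in each treatment. The results rest on 4 peak lists, those of H3K4me3 and H3K27me3; IgG was not analysed here. There are no replicates, so no difference between treatments could be set against replicate spread, and p-values are not printed.

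Axon guidance proteins steer growing axons and migrating cells. Semaphorins act through plexins and neuropilins, ephrins through Eph receptor tyrosine kinases, Slits through Robo receptors, and netrins through Dcc, Neo1 and the Unc5 receptors. Many of them are also used in the embryonic forebrain before axons grow, at progenitor boundaries and along the ventricular surface. H3K4me3 sits at active and poised promoters and H3K27me3 is laid down by Polycomb at silent developmental genes. Promoters that carry both marks are called bivalent. These are bulk profiles, so marks that overlap may lie in different cells, and fewer marked cells cannot be told apart from less mark per cell.

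The lists held 13221 (water) and 16007 (crotonate) H3K4me3 peaks, and 7643 and 15879 H3K27me3 peaks. They give no fragment totals. Judged by the step size of the pileup and by the lowest local background, the crotonate library was estimated at 1.16 times the depth of the water library for H3K4me3 and at 0.811 times for H3K27me3. The local background was estimated to be 1.80 times deeper after crotonate. The part that depth and background play in the counts and widths given here was not tested. Of 10 stem and progenitor marker genes, 9 had H3K4me3 at a gene end in both treatments and 0 had H3K27me3; the exception was Pax6. Of 6 neuronal markers, 4 had H3K4me3 in both treatments, and so did 1 of 4 astrocyte markers; of 5 oligodendrocyte lineage markers 3 had it in water and 4 after crotonate. Of 4 microglial markers, 0 carried H3K4me3 or H3K27me3 in either treatment. Of 4 endothelial markers Kdr alone carried H3K4me3, and of 4 fibroblast markers Col1a1 alone, after crotonate only. H3K27me3 lay at Rbfox3, Stmn2 and Pdgfra in both treatments, and at Cldn5 and Dcn after crotonate only.

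The sequences below are the promoters, from 250 bases before to 50 after the annotated start, of the members on which the changes turn, as given by RefSeq for GRCm38.p6. Robo3 (chr9:37433126-37433425, minus strand) and Sema4f (chr6:82939720-82940019, minus strand) gained H3K4me3. Ntng2 (chr2:29248050-29248349, minus strand) lost H3K27me3. Calls were made within 2 kb of a gene end, and the gained H3K4me3 peak of Sema4f and the lost H3K27me3 peak of Ntng2 lay outside the printed bases. Sema5b (chr16:35541112-35541411, plus strand) had H3K4me3 alone in both treatments, with the highest −log10 q in water (91.5) of a peak at an end of such members. Slit2 (chr5:47982905-47983204, plus strand) and Slit3 (chr11:35121206-35121505, plus strand) were added after their values were seen. Within 2 kb of its start Slit2 had both marks, with H3K27me3 beginning past the printed bases, and Slit3 had H3K27me3 alone. Capitals mark CpG dinucleotides, the bases that make up CpG islands.
Robo3: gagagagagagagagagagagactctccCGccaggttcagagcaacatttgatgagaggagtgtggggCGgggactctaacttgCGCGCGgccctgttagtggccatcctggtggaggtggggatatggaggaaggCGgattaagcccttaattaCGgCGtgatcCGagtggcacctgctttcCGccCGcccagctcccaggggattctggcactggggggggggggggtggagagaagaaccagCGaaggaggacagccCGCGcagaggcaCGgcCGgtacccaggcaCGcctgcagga
Sema4f: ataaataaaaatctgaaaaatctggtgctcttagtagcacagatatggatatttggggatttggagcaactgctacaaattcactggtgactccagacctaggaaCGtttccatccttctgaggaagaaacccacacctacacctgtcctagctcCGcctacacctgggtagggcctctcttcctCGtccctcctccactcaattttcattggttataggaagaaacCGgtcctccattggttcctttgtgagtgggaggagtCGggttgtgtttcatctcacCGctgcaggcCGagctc
Ntng2: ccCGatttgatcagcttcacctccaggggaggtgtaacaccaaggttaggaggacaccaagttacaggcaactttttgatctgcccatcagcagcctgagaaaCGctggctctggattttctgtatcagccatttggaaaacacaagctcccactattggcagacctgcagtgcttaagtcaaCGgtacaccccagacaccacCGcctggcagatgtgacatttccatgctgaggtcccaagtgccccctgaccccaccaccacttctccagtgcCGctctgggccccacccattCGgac
Sema5b: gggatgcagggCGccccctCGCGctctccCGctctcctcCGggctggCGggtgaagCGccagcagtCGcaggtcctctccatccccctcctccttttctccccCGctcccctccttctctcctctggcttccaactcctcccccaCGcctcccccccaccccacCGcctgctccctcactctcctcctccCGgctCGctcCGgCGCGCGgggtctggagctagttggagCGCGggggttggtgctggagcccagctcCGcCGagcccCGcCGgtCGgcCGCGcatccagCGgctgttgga
Slit2: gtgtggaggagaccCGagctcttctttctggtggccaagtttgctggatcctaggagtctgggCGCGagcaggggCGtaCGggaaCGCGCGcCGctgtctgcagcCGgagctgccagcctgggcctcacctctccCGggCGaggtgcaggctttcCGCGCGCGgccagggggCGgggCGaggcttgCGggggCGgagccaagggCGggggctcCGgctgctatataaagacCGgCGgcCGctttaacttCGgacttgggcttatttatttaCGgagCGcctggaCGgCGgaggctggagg
Slit3: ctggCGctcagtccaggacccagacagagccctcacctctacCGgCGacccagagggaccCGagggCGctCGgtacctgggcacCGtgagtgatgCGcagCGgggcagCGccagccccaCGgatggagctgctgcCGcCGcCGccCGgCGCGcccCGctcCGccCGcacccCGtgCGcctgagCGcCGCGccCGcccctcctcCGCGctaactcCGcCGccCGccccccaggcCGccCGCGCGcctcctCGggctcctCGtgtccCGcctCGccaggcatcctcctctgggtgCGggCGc

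The stretches differ in CpG content: Slit3 has 41 CpG in 300 bases, Slit2 30, Sema5b 27 and Robo3 17, whereas Sema4f has 7 and Ntng2 has 6. Promoter sequence was at hand for 64 members, and where a gene has several starts the one listed at the top was taken. The median member promoter had 22.5 CpG, against 13 over 17492 protein-coding genes. Of the 35 member promoters with 20 or more CpG, 32 had H3K4me3 within 2 kb of that same start in water, and Efna1, Slit3 and Epha8 did not. Of the 12 with under 10 CpG, 1 had it, namely Sema3d. Over all genes the corresponding shares were 91.9% of 6313 and 12.0% of 7494 promoters. The GC box letters GGGCGG, read on either strand, were in 73.4% of member promoters and 46.3% of all. The letters TATAAA, read on either strand, were in 3.12% of member promoters, at Slit2 and Efnb2, and in 13.3% of all.

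Most guidance genes carried H3K4me3 whatever the treatment. A peak lay within 2 kb of either annotated end at 56 of 74 members in water (75.7%, exact Clopper-Pearson 95% interval 64.3 to 84.9, counting error only) and at 59 after crotonate, against 54.1% and 58.2% of all protein-coding genes. H3K27me3 lay at an end of 16 members in water (21.6%, 12.9 to 32.7) and 17 after crotonate, against 9.45% and 12.3% of all genes. Both marks stood at the same end of 10 members in water and 13 after crotonate, against 3.85% and 6.81% of all genes. With the lists of each mark cut to equal length, the counts were 10 and 10, and shares over all genes are not given here. In the full lists, with peaks inside the gene counted too, 60 and 64 members had H3K4me3 and 19 and 21 had H3K27me3. The shares over all genes were 57.4%, 61.5%, 11.0% and 14.9%. Both marks met in 11 and 16 members on that count, against 3.88% and 7.1% of all genes.

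Ligand and receptor genes were counted separately. Within 2 kb or inside the gene, 29 of 37 ligand genes and 30 of 35 receptor genes had H3K4me3 in water, and 9 and 10 had H3K27me3. By family, H3K27me3 was present in water at 5 of 7 Slit and Robo genes, 2 of 6 netrin receptors, 4 of 14 Eph receptors, 2 of 8 ephrins, 2 of 11 plexins and neuropilins, 1 of 6 netrins, 2 of 13 membrane semaphorins and 1 of 7 secreted semaphorins, where 11.0% of all genes had it. The families are small, and their differences were not tested. These counts include peaks inside the gene and are not corrected for gene length. At the gene ends, 1 of the 7 Slit and Robo genes had both marks in water and 2 had H3K27me3 alone. At the membrane semaphorin gene Sema6b the only H3K27me3 lay at the 3′ end, where it also reached an end of Plin5 and of Lrg1. No peak of either mark was found in or near 8 of 74 members, where 7274 of 21887 protein-coding genes had none. The 8 were Epha1, Robo4, Unc5cl, Sema4a, Ntn5, Plxnb3, Sema3b and Sema3g. Robo4 is known as the Robo of blood vessel endothelium. At Epha6 the only H3K4me3 at a gene end lay at the 3′ end, where it also reached an end of Arl6, and the annotated start of Epha6 carried H3K27me3 alone. That H3K27me3 peak had a −log10 q of 1.38 in water, at percentile 0.347 of the list, and of 14.0 after crotonate.

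**Figure D1:**
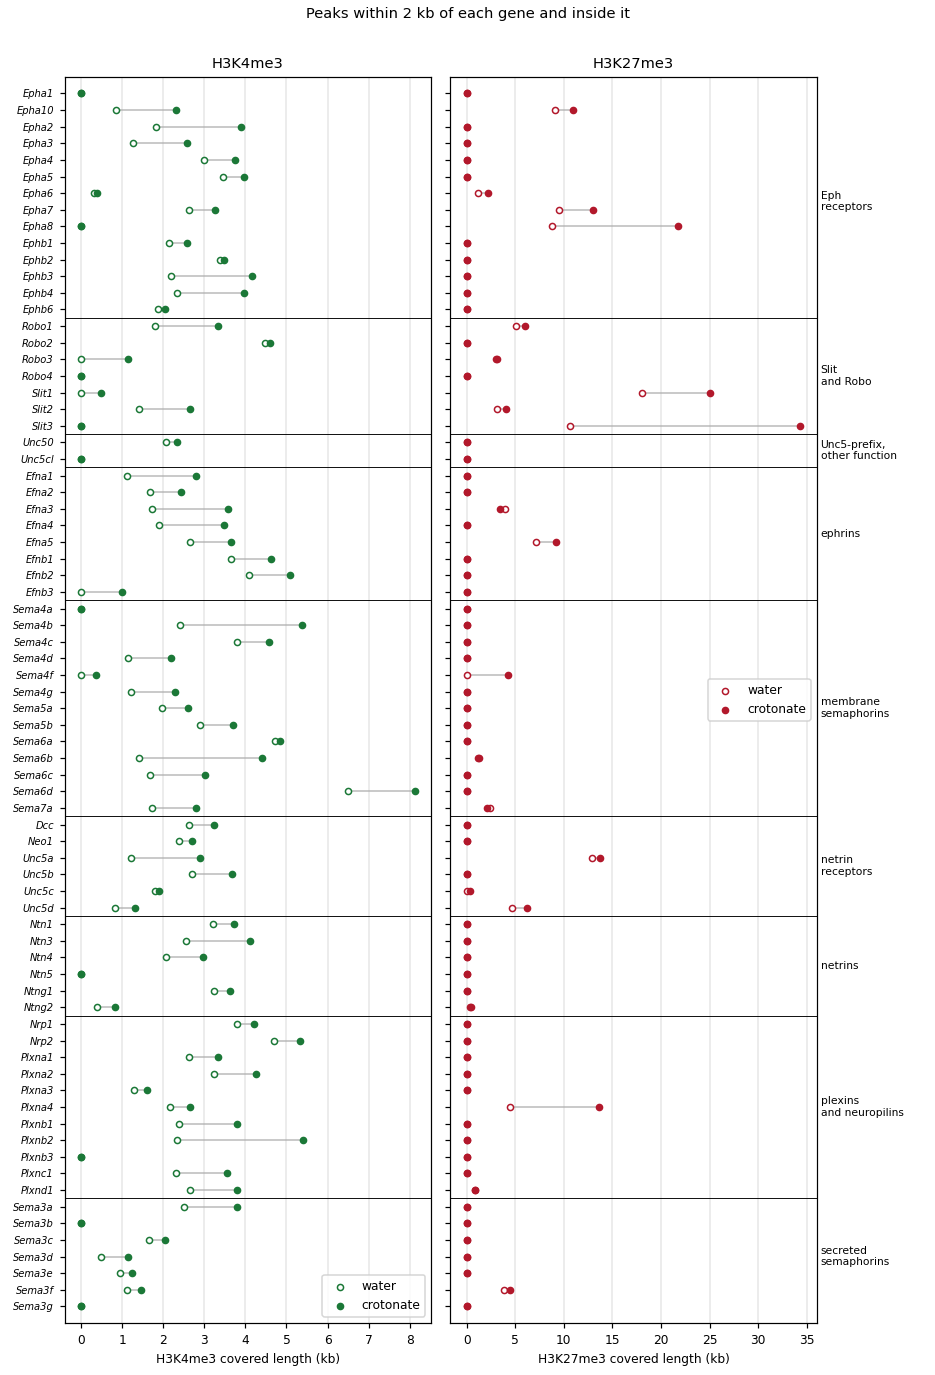
Length covered by H3K4me3 peaks (left) and H3K27me3 peaks (right), in kb, within 2 kb of each of the 74 genes and inside it, with 1 row per gene grouped by family; open circles are the water library and filled circles the crotonate library. H3K4me3 is present in most rows, and long H3K27me3 is seen in few, with Slit3 going from 10603 to 34337 bp.

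Changes of call at the gene ends were few. H3K4me3 was gained by 3 of 74 members (4.05%, 0.844 to 11.4), against 4.18% of all genes, and lost by 0, against 0.0503%; a count of 0 of 74 allows a share of up to 4.86%. H3K27me3 was gained by 2 members (2.70%) and lost by 1 (1.35%), against 3.19% and 0.384% of all genes. These shares are near the background, and the members that changed are described as single cases. Every peak behind a change had no counterpart in the list of the other treatment.

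Robo3 encodes a Robo family receptor that lets commissural axons cross the midline. In water its start, on the minus strand of chromosome 9, lay in an H3K27me3 peak of 3023 bp from 37432236 to 37435258, and no H3K4me3 peak was called. After crotonate the H3K27me3 peak measured 3165 bp, and an H3K4me3 peak of 1141 bp appeared from 37432190 to 37433330, running from 155 bp before the start to 985 bp into the gene. The new peak had a −log10 q of 13.4, at percentile 24.0 of its own list, with an authors' fold enrichment of 8.94. Of its 1141 bp, 1133 bp lay on H3K27me3. Over all genes, 37.7% of the 1110 with H3K27me3 alone in water gained H3K4me3; among members Robo3 was 1 of 4 such genes, and Epha8, Slit3 and Unc5a had no H3K4me3 within 2 kb of either outer end in either treatment.

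Sema4f encodes a membrane semaphorin. Neither mark was called in or near it in water. After crotonate 4 H3K27me3 peaks of 817 to 1475 bp were called. The one over the start had a −log10 q of 5.73, and the strongest, inside the gene, 6.20. An H3K4me3 peak of 370 bp lay within the H3K27me3 peak at the start, with a −log10 q of 3.02, at percentile 6.37 of the list. Efnb3, the gene of the transmembrane ligand ephrin-B3, had a new H3K4me3 peak of 987 bp with −log10 q 5.59, which also lay at an end of the neighbouring gene Wrap53, and no H3K27me3. The Efnb3 peak stood at percentile 14.0 of the list.

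Efna1 encodes ephrin-A1, a ligand of EphA receptors. In water its only H3K4me3, 1228 bp, lay at the 3′ end and also touched an end of Slc50a1. After crotonate 2 peaks, of 1245 bp (−log10 q 11.0) and 353 bp (3.02), lay at the 5′ end, each within 2 kb of an annotated start. At Sema3a, the gene of a secreted axon repellent, the peak was already there in water, 2497 bp wide, but began over 2 kb past the listed start and reached the window only after crotonate, at 2902 bp. Within 2 kb of a listed start, 48 of 64 members had H3K4me3 in water and 52 after crotonate, against 55.3% and 58.8% of all genes with a listed start. On that count 4 of 64 members gained H3K4me3 (6.25%), namely Robo3, Sema4f, Efna1 and Sema3a, against 3.56% of all genes with a listed start.

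Unc5c, a netrin receptor gene, kept H3K4me3 over 1791 bp in water and 1892 bp after crotonate. An H3K27me3 peak of 378 bp with −log10 q 3.78 was called on its downstream side after crotonate alone. Ntng2 encodes netrin-G2, a membrane-anchored netrin relative at synapses. It had an H3K27me3 peak of 2373 bp in water, −log10 q 14.3 (percentile 79.8), which lay upstream, from position -3949 to position -1577 in bp relative to the start. That peak had no counterpart after crotonate, when the only H3K27me3 near the gene was a peak of 369 bp inside it. Of the water peak, 424 bp lay within 2 kb of the gene. The water peak also overlapped an H3K4me3 peak that lay more than 2 kb from the gene.

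**Figure D2:**
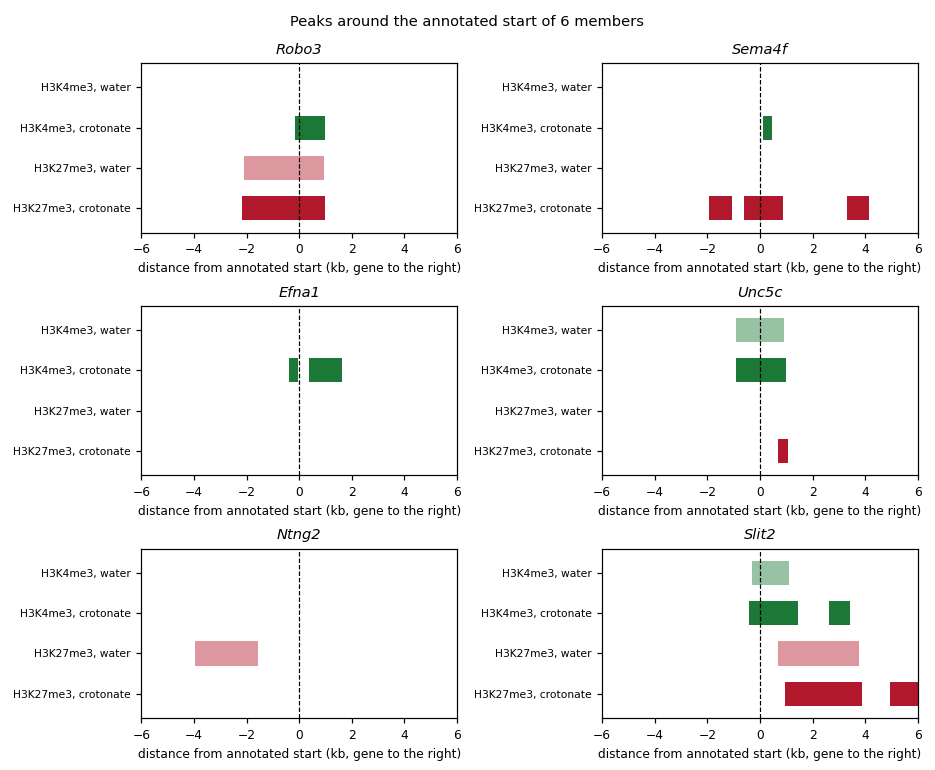
Peaks around the annotated start (dashed line) of Robo3, Sema4f, Efna1, Unc5c, Ntng2 and Slit2, with distance in kb on the horizontal axis and the gene to the right; each bar is 1 peak, green for H3K4me3 and red for H3K27me3, pale for water and dark for crotonate, and only peaks that reach within 2 kb of the gene are drawn. A green bar is seen after crotonate alone at Robo3, Sema4f and Efna1, and the red bar of Ntng2 after water alone.

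The Slit genes encode secreted ligands of the Robo receptors and each had H3K27me3 in water. Slit2 had both marks: H3K4me3 ran from 325 bp before to 1085 bp past the start (1411 bp), and H3K27me3 began 671 bp past it and covered 3102 bp. After crotonate H3K4me3 measured 1843 bp, a further H3K4me3 peak of 812 bp (−log10 q 7.45) was called inside the H3K27me3 peak of 2932 bp, and a further H3K27me3 peak of 1074 bp (6.23) lay deeper in the gene. Slit1 had no peak within 2 kb of its ends. Inside, its H3K27me3 peaks covered 18010 bp in water and 25055 bp after crotonate, and 3 water peaks came to lie in 1 of 13793 bp. An H3K4me3 peak of 487 bp (−log10 q 6.71) was called after crotonate alone, within an H3K27me3 peak of 6666 bp.

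Slit3 carried H3K27me3 and no H3K4me3 in either treatment. The peak over its CpG-rich start measured 5286 bp in water and 5191 bp after crotonate. Inside the gene, which spans 587052 bp on chromosome 11, 9 H3K27me3 peaks were called in water and 28 after crotonate. Those after crotonate lay between 329916 and 545316 bp past the start, and those in water within that stretch. Of all 29 crotonate peaks, 21 had no counterpart in water, with a median of 783 bp and a highest −log10 q of 12.1, and 2 of the 10 water peaks had none after crotonate. The covered length went from 10603 to 34337 bp, a difference that ranked 13 among 21887 genes. The rank is not corrected for gene length.

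The Robo receptor genes differed from each other. Robo1 had H3K4me3 at a start inside the gene, 1421 bp in water and 1770 bp after crotonate, and a small peak at its outer 5′ end of 379 and 1553 bp, the largest ratio of widths among member pairs at 4.10. At that outer end H3K27me3 measured 931 and 1601 bp, beside the H3K4me3 in water and overlapping it by 1131 bp after crotonate. Robo2 had a peak of 4468 and 4601 bp at an inner start and no H3K27me3. Robo4 had no peak in any list.

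H3K27me3 lengthened at most members that had it. The covered length rose at 17 of 21 such genes and fell at 4 (Efna3, Sema7a, Ntng2 and Plxnd1), while over all genes it rose at 83.3% of 3341. Summed over the members it was 110150 bp in water and 180350 bp after crotonate, 1.64 times as long, against 1.46 times over all genes. Slit3, Epha8, Plxna4 and Slit1 made up 75.3% of the difference, and without them the ratio was 1.25. They were picked as the largest increases in these same data, and no top genes were taken out of the 1.46 over all genes. The 1.25 is therefore not to be set against the 1.46. Such sums move with how much was called in each list. Epha8, an Eph receptor gene, had the highest −log10 q of any H3K27me3 peak at a member in water, 101, over 9093 bp at its start, and the peak there measured 12040 bp after crotonate. Further into that gene a peak of 513 bp became one of 5479 bp, and a peak of 2724 bp was called after crotonate alone. Plxna4, a receptor subunit gene for secreted semaphorins, went from 4418 to 13597 bp. At its right end it kept H3K4me3 of 2173 and 2644 bp.

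**Figure D3:**
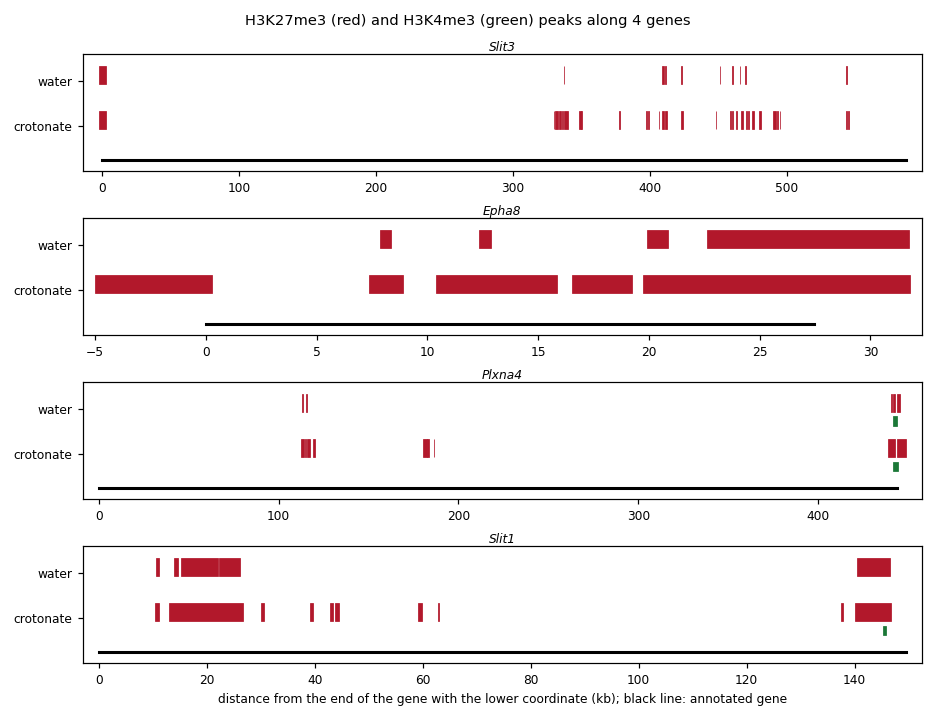
H3K27me3 peaks (red) and H3K4me3 peaks (green, lower bars) in water (top row) and after crotonate (lower row) along Slit3, Epha8, Plxna4 and Slit1, with distance in kb from the gene's end of lower coordinate; the black line is the annotated gene. The red bars inside Slit3 number 9 in water and 28 after crotonate.

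Some of the longest domains belonged to netrin receptor and ephrin genes. Unc5a, a netrin receptor gene, had the longest H3K27me3 peak of any member, 12900 bp in water and 15426 bp after crotonate, with H3K4me3 of 1223 and 2153 bp at its listed start. Efna5, the gene of ephrin-A5, had H3K27me3 of 7171 and 7631 bp and H3K4me3 of 3168 and 4712 bp at the same end. Besides Efna5, the genes with both marks at the same end in water were Efna3, Epha7, Epha10, Plxna4, Plxnd1, Unc5d, Sema7a, Sema3f and Robo1. Unc5a, with its H3K4me3 inside the gene, is not among them. Of the 10 members with both marks at the same end, 10 kept both after crotonate, and over all genes 776 of 842 did. Some of these H3K27me3 calls were weak: −log10 q was 1.38 at Plxnd1 in water and 2.38 at Robo1 after crotonate. With a −log10 q of at least 5 required, 8 members had both marks in water and 9 after crotonate. The share over all genes at that limit is not given here. At Efna3 the H3K27me3 peak narrowed from 3946 to 3408 bp and at Sema7a from 2437 to 2077 bp.

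The stretch where H3K4me3 and H3K27me3 overlap grew over the whole genome, and at nearly every bivalent member. Overlap was found at 11 members in water and 16 after crotonate. It was longer after crotonate at 10 of those 11, by 358 bp at Sema3f up to 1670 bp at Unc5a, and shorter by 51 bp at Plxnd1. The share of all genes with longer overlap is not given here. The 5 members with overlap after crotonate alone were Unc5c, Sema4f, Slit1, Robo1 and Robo3. Summed, overlap went from 11295 to 24388 bp, 2.16 times as long, and over the whole genome it was 2.24 times as long, from 764170 to 1714732 bp.

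H3K4me3 peaks at members were wider after crotonate without exception among those that paired. Each water peak at a member (74 of 74) overlapped a crotonate peak, against 99.3% of all water peaks, and 23 of the 91 crotonate peaks at members had no counterpart in water (25.3%, against 21.1% of the whole list). Among 62 peaks with a single partner in the other list, 62 were wider, against 94.5% of 12093 such pairs in the genome. The median ratio of widths was 1.31 (95% interval of the median over pairs 1.24 to 1.47) at members and 1.24 over all pairs. The smallest ratios were those of Robo2, Sema6a, Dcc and Ephb2, each 1.03, and of Ntn3 at its 3′ end, 1.05. The netrin receptor gene Dcc had 2637 and 2727 bp, and the class 6 semaphorin gene Sema6a, the widest in water, 4710 and 4848 bp. Large ratios belonged to narrow water peaks: after Robo1 came Epha3 (545 and 1610 bp), Sema3d (474 and 1128 bp), Sema4b at its outer start (259 and 610 bp) and Ntng2 at its 3′ end (388 and 815 bp).

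Other wide H3K4me3 peaks in water were at Efnb2 (4081 bp, 5088 bp after crotonate), inside Sema6d (4074 and 5346 bp) and at Nrp1 (3791 and 4217 bp). Nrp1 and Nrp2 encode neuropilins, co-receptors for secreted semaphorins. At Nrp2, water peaks of 1772 and 2934 bp lay within 1 crotonate peak of 5323 bp, and 6 crotonate peaks of members joined several water peaks in this way, also at Efna3, Epha5, Epha7, Plxna2 and Sema6b. No H3K4me3 peak of a member was split. The shares of joined and split peaks over the whole lists are not given here, so these counts stand without a background. The gene of the founding netrin, Ntn1, had 3203 and 3714 bp, and its receptor gene Neo1 had 2373 and 2686 bp.

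**Figure D4:**
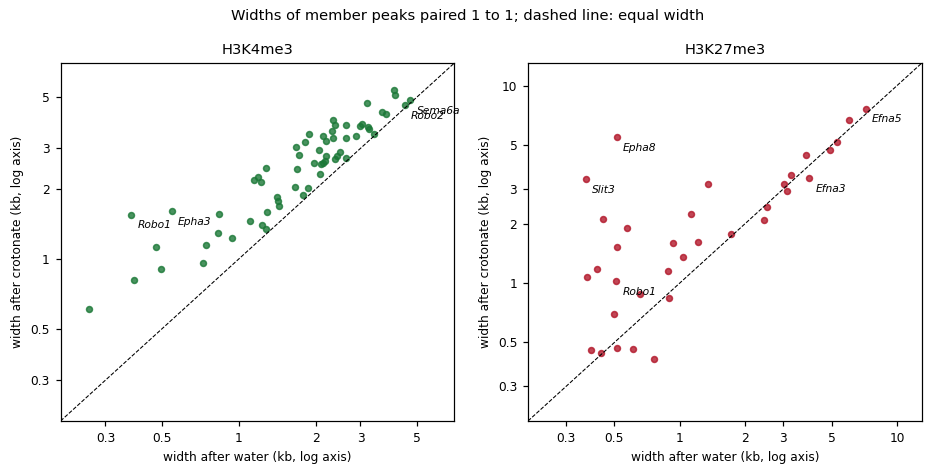
Width of each member peak with a single partner in the other list, after water (horizontal) and after crotonate (vertical), in kb on log axes, for H3K4me3 (left, 62 pairs) and H3K27me3 (right, 34 pairs). All 62 H3K4me3 points lie above the dashed line of equal width, and 24 of the 34 H3K27me3 points do.

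For H3K27me3, 24 of 34 pairs at members were wider (70.6%), against 78.6% of 3987 pairs in the genome, with a median ratio of 1.17 (1.02 to 1.72) and 1.30. The ratios ranged from 0.538 and 0.759, for small peaks inside Robo1 and Plxna4, to 9.08 inside Slit3 and 10.7 inside Epha8. Epha7 and Epha10 also had ratios of 2.85 and 2.34 inside the gene. Among long peaks with a single partner, the ratios were 0.982 at Slit3, 1.06 at Efna5 and 1.11 at Slit1.

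The outer edges of the H3K4me3 peaks that reached within 2 kb of a start were measured, with 1 start per gene, the one listed at the top. Robo2, marked only at another listed start, is not among them. Among 47 members with H3K4me3 there in both treatments, the downstream edge lay farther out after crotonate at 47 of 47, by a median of 435 bp, and the upstream edge at 44, by a median of 175 bp. Over 9477 genes the downstream edge lay farther out at 89.6% and the upstream edge at 87.8%, and the medians were 205 and 152 bp. The downstream edge moved by more than the upstream edge at 32 of 47 members (68.1%), against 57.3% of all genes. Members began with a longer reach into the gene, a median of 1533 bp in water against 1110 bp, and this difference was not adjusted for. At 40 of the 47 a single peak in each list was concerned, a restriction chosen after seeing the data. There the medians were 363.5 bp downstream and 175 bp upstream, with the downstream edge farther out at 40 of 40. Over 8441 genes with single peaks the medians were 192 and 145 bp, with the downstream edge farther out at 89.3%. Among the 40 members the downstream edge moved by 1183 bp at Sema6c and 1150 bp at Plxnd1. At Plxna2 it went from 2089 to 3410 bp past the start, but a separate water peak already reached 2860 bp and was joined after crotonate. Efna4 was unlike them, with 1372 bp upstream and 220 bp downstream, and each of its peaks was single. At Ntn3 the peak over the start went from -317 to -399 bp upstream, and a separate crotonate peak of 297 bp with −log10 q 1.5 lay farther out. At Nrp1 the upstream edge drew in, from 2224 to 1844 bp.

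**Figure D5:**
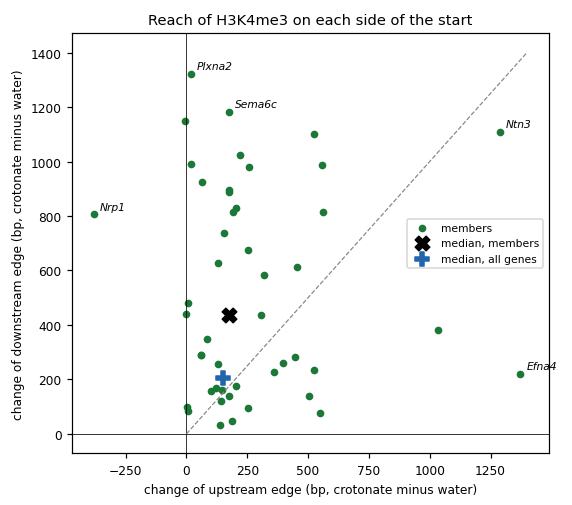
Change of the upstream edge (horizontal) and of the downstream edge (vertical) of H3K4me3 around the annotated start, in bp, crotonate minus water; each green point is 1 of 47 members, the black and blue symbols are the medians of members and of all genes, and on the dashed line both edges move equally. Edges are those of the outermost peak, which at Ntn3 and Plxna2 is a separate or joined one; the member median is 435 bp downstream and 175 bp upstream.

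H3K4me3 peaks called after crotonate alone were low in their list. Of the 23 crotonate peaks without counterpart, 17 lay inside a gene, away from its ends, and over the 23 the median was 693 bp and −log10 q 6.68, where the whole list has a median of 57.5. Place and strength are not given here for the 3371 such peaks of the whole list, so neither is read as particular to members. The strongest were inside Plxnb2, a plexin gene, 1286 bp at a further listed start with −log10 q 15.8, and Sema6b, 693 bp at a further start with 13.9. Those inside Ephb3 (937 bp, 12.9), Epha10 (737 bp, 9.87), Sema3a (885 bp, 8.67), Unc5a (740 bp, 7.40) and Sema4b (514 bp, 6.68) followed, with those of Slit2 and Slit1 given above. For H3K27me3, 47 of 91 crotonate peaks at members had no counterpart in water (51.6%), below the 63.2% of the whole crotonate list. Of the 47, 43 lay inside genes, and the corresponding share of the whole list is not given here. Of 51 water peaks at members, 3 had no counterpart after crotonate (5.88%, against 8.30% of the whole water list). The strongest inside H3K27me3 peaks called after crotonate alone lay in Slit3, Epha8, Plxna4, Slit2, Sema4f and Slit1.

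Partners of the guidance receptors and their effectors, a list of 49 genes, were counted in the same way. H3K4me3 was at an end of 39 in water and 42 after crotonate, with 3 gains (Flrt1, Cntn4 and Islr2) and 0 losses, where 54.1% and 58.2% of all genes had it and 4.18% gained it. At Flrt1, an adhesion protein gene, the new H3K4me3 peak measured 2346 bp (−log10 q 17.5) at an end with H3K27me3 of 6368 bp in water and 6032 bp after crotonate. Cntn4 and Islr2 had new peaks of 779 and 368 bp at ends with H3K27me3. H3K27me3 was gained by 4, Draxin, Cdon, Flrt2 and Crmp1, and lost by 0, where 3.19% of all genes gained it and 0.384% lost it. The strongest was at Cdon, a co-receptor gene of hedgehog and netrin signalling, 2954 bp with −log10 q 9.57, which overlapped a peak of the water list outside the window. Both marks stood at the same end of 6 of the 49 in water and 12 after crotonate, against 3.85% and 6.81% of all genes.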

How the data were processed

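Reads were handled by the authors with MACS2 2.2.7.1, Bowtie2 2.4.1 (build GRCm38), Picard 2.22.0 and SAMtools 1.10, per the submitters' processing notes; caller settings and the control library are not stated there. Each deposited list covers 1 library. Per the file headers it gives the summit pileup, a signal scaled by the authors' caller, and −log10 of p and of q. The deposited fold enrichment is the authors' ratio of pileup to local background and was used within a list only. Percentiles are ranks of −log10 q within a list.

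From these lists, overlaps of at least 1 bp were computed in Python 3.11.15 (scipy 1.17.1, pandas 2.3.3, numpy 2.4.6); matplotlib 3.10.9 drew the plots. The code was tested on simulated peaks. A gene had a mark when a peak reached within 2 kb of either annotated end, and a gain or loss is a call in 1 treatment only. Depth was estimated from pileup steps, assuming scaling of each library to its local background. Members, lists and rules were chosen with earlier results of these data known. By rule the text names members whose call changed, the 5 widest and the 5 most and least widened peaks per mark, the 10 strongest inside peaks of 1 treatment, and the Slit, Robo, neuropilin and main netrin genes; other members were named after their values were seen. Alternatives were lists of equal length, stricter fold or q limits, other windows and 50% reciprocal overlap.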

Additional observations from a re-analysis of the deposited data

How the results depend on the processing

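No paired analysis was possible because each mark and treatment has 1 library, so there are no pairs to block on. Of 94 values for 16 results under the alternatives, 79 stayed within 1.5 times the main count or within the main interval and 15 moved; the cause was not tested. With lists of equal length, 1 member gained H3K4me3 (Robo3), 1 gained H3K27me3 (Sema4f) and 2 lost it (Ntng2 and Robo1). H3K27me3 then lay at an end of 16 members in water and 15 after crotonate, and both marks at the same end of 10 and 10. At a fold enrichment of at least 5, 1 member gained H3K27me3 (Sema4f) and 2 lost it (Ntng2 and Robo1), and at a −log10 q of at least 5, 1 gained it (Sema4f). Under each of these limits 4 members gained H3K4me3, Efnb3, Robo1, Robo3 and Sema4b, so the gain at Sema4f was lost. With windows of 5 kb, 5 members gained H3K4me3 and 6 gained H3K27me3. Shares over all genes under the alternatives are not given here, so these counts stand without a background. The loss at Ntng2 went to 0 with windows of 1 kb, with peaks inside the gene counted, and with at least 500 bp or all of the peak required in the window. The share of water peaks at members that overlap a crotonate peak fell under 50% reciprocal overlap to 82.4% for H3K4me3 and 52.9% for H3K27me3. For H3K27me3 it was 76.5% with lists of equal length and 83.3% at a fold enrichment of at least 5. Counts of changed calls rest on few members and 1 library a group, and the lists hold no fragment totals.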
